A study of Mus musculus with 6 samples.

Results

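The genes described here are 10 inhibitors ("brakes") of mTORC1, the growth-promoting kinase complex built around mTOR, in mouse AML1-ETO9a (AE9a) leukemia cells. They were chosen by name from the 54532 genes of the count table, with earlier results of these data known. Among them are Ddit4, the sestrin genes Sesn1, Sesn2 and Sesn3, and the TSC genes Tsc1 and Tsc2. The others are the GATOR1 genes Depdc5 and Nprl2, and the mTORC1-bound inhibitors Deptor and Akt1s1. All 10 passed the filter on low counts, so each has a test. The account turns on the sestrin, TSC and GATOR1 genes, with Ddit4, which codes for DDIT4 (REDD1), as the reference.

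AE9a leukemia cells carry a shortened AML1-ETO fusion delivered by retrovirus into c-Kit+ progenitors of C57BL/6 mice. The cells sequenced came from the third transplant generation, and female C57BL/6 recipients were obtained at 6 to 8 weeks of age and irradiated before transplantation. In 3 libraries the cells were flushed from femurs and tibias (central bone marrow, CBM). In the other 3 they were released from the flushed bones by collagenase I at 2 mg per mL and 37 °C for 15 min (endosteal bone marrow, EBM). Flushed cells were not digested, so region and digestion cannot be told apart. All 6 libraries share the strain and the fusion, and the cells were kept in culture medium before and after sorting. No label ties a library to a mouse, so p-values measure the spread between these libraries, which may be partly technical.

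mTORC1 promotes protein synthesis and growth when growth factors, amino acids, oxygen and energy are sufficient, and its brakes hold it back at several steps. DDIT4 rises under hypoxia and other stress and acts through the TSC complex, in which TSC2 is the GTPase-activating subunit for Rheb and TSC1 stabilizes it. Sestrins are stress-induced, and SESN2 also senses leucine, holding back GATOR2 when leucine is low. GATOR1, with DEPDC5, NPRL2 and NPRL3 as its subunits, switches off the Rag GTPases that bring mTORC1 to the lysosome. DEPTOR and PRAS40, the product of Akt1s1, bind mTORC1 itself.

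Gene counts summed to 16436526 to 19462964 per library, and values per library are given in the order of replicates 1, 2 and 3. A floor of 3 counts was between 0.154 and 0.183 CPM, the unit of a gene's counts scaled to a common library size after TMM normalization. The floor covers counting error only, since PCR reads are not independent molecules, while the 95% intervals come from the edgeR fit and include the spread between libraries. Of the markers set for AE9a blasts, Kit was at 196 to 239 CPM and Myb at 268 to 352 CPM, while the leukocyte gene Ptprc (CD45) was at 0.0992 to 3.58 CPM and Mpo at 1.65 to 35.8 CPM. Kit, the marker that the starting progenitors were selected for, was thus high, while the pan-leukocyte marker was under the floor in the lowest library. In bulk RNA, fewer cells of a type and less RNA per cell cannot be told apart. Erythroid markers summed to 2149 to 5420 CPM in CBM and 2503 to 3687 CPM in EBM. Markers of osteoblasts, which line the endosteum, summed to 8.08 to 12.4 CPM in CBM and 7.62 to 9.41 in EBM. Of these 8 genes, 7 were under 1 CPM in every library and Alpl and Sp7 were at 0. Summed levels of stromal, endothelial, osteoclast, macrophage, neutrophil, B cell and T cell markers also overlapped between the regions. The neutrophil sum ran from 3.27 to 218 CPM in CBM and from 34.1 to 157 CPM in EBM. With such a spread between libraries, its overlap says little. Of 19 genes known to be induced by tissue digestion 14 had a positive and 5 a negative log2 fold change (median 0.42). At an unadjusted edgeR p under 0.05, 4 were higher and 1 lower, beside 4.01% higher and 3.90% lower over all genes tested. Log2 fold changes ran from 4.40 for Hspa1a, with 2 counts in each CBM library, and 3.74 for Hspa1b to -1.13 for Dusp1 and -1.31 for Fos. The mean centred log2 CPM of the list was 0.16, -0.41 and -0.99 in the CBM libraries against 0.56, 0.48 and 0.21 in the EBM libraries.

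Of the brakes, Ddit4 and Sesn2 were higher in EBM by nearly the same amount, and the other 8 were not separated from zero change. Sesn2 was 1.50-fold and Ddit4 1.49-fold higher in EBM by mean CPM. In the quasi-likelihood test of edgeR over 13352 genes, neither was under an adjusted p of 0.05, and nor was any other gene (0 genes, 0%), although 1056 were under 0.05 unadjusted. At an unadjusted p under 0.05, 2 of the 10 brakes were higher in EBM and 0 were lower, against 4.01% of all genes tested higher and 3.90% lower. limma-voom also gave 0 brakes at an adjusted p under 0.05, while DESeq2 gave 2, again Sesn2 and Ddit4, against 0.995% of its genes higher in EBM at that threshold. Over the 10 brakes the median log2 fold change was 0.01, beside 0.00 over all genes tested.

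**Figure D1:**
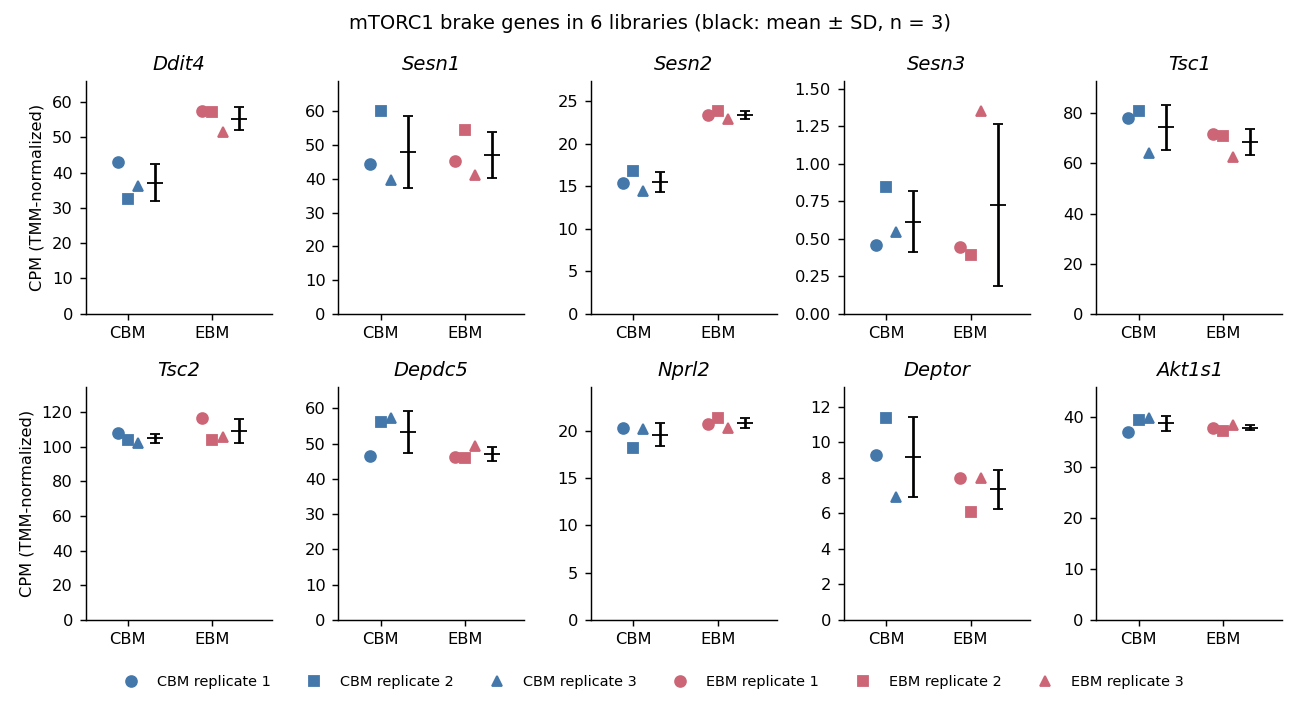
CPM of each of the 10 genes (vertical axes, each from 0) in CBM and EBM libraries, with marker shapes for replicate numbers and black bars for the mean ± SD of 3 libraries. EBM libraries lie clear of CBM libraries for Ddit4 and Sesn2, while Nprl2 separates by a hair and the other 7 genes overlap.

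The reference gene Ddit4 (ENSMUSG00000020108) spans 59949669 to 59951834 on chromosome 10 of GRCm38, minus strand. Its level was 43.0, 32.5 and 36.1 CPM in the CBM libraries against 57.4, 57.1 and 51.6 CPM in the EBM libraries. The lowest EBM library was above the highest CBM library. The log2 fold change was 0.57 (SE 0.13, 95% interval 0.26 to 0.88), with an unadjusted edgeR p of 0.00332 and an adjusted p of 0.304. DESeq2 gave 0.58 with an adjusted p of 0.0380.

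The sestrin gene Sesn2 (ENSMUSG00000028893) spans 132492032 to 132510501 on chromosome 4, minus strand. It was counted 270, 319 and 291 times in the CBM libraries against 423, 428 and 357 times in the EBM libraries. These counts are 15.4, 16.8 and 14.4 CPM in CBM against 23.4, 23.8 and 22.9 CPM in EBM, so the gap between the regions was far wider than the spread within either. The mean was 15.5 ± 1.19 CPM (SD, n = 3) in CBM against 23.4 ± 0.444 CPM (SD, n = 3) in EBM. The log2 fold change was 0.59 (SE 0.12, 95% interval 0.31 to 0.87), with an unadjusted p of 0.00165 and an edgeR adjusted p of 0.226. By p-value Sesn2 ranked 96 among the genes tested, ahead of Ddit4 at 145. DESeq2 gave a log2 fold change of 0.59 (SE 0.153) with an adjusted p of 0.0123. The mean of the digestion list given above did not overlap between the regions either, but only narrowly (0.16 in CBM replicate 1, 0.21 in EBM replicate 3). The part of that list in the Ddit4 and Sesn2 differences was not tested.

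Because Ddit4 and Sesn2 were the brakes with the clearest difference between the regions, the sequence before their transcription starts is shown, on the coding strand and from RefSeq for GRCm38.p6. Of the 250 bases before the RefSeq start, the 186 (Ddit4) and 205 (Sesn2) that also lie before the gene as deposited are printed. Capitals mark ACGTG, the core of the element bound by hypoxia-inducible factors.
Ddit4, minus strand, chr10:59951835-59952020: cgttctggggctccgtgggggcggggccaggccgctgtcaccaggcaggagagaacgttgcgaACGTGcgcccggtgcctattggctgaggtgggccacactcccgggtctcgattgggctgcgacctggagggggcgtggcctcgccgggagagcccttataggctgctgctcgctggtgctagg
Sesn2, minus strand, chr4:132510502-132510706: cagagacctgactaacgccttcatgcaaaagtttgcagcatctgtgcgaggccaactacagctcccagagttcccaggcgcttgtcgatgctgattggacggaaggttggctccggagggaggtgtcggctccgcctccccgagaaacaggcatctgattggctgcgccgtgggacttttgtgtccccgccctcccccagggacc

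The full 250-base window of Ddit4 held 1 match to ACGTG, at 187 to 183 bases before the RefSeq start, and that of Sesn2 held 0. Searched on both strands, ACGTG was found in 16.6% of the 32851 windows of this length in the table. The cores TGATGNAA (ATF4 composite elements, 3.45% of all windows), GTAAACA (FoxO, 3.17%) and TCACGTGA (the CLEAR element of TFEB, 0.785%, which itself contains ACGTG) were in neither window. Windows were at hand for 9 of the 10 brakes, with 2 for Sesn1, and outside that of Ddit4 none held any of these letters. A missing match says only that these letters are not in that stretch.

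Sesn1 (ENSMUSG00000038332), a p53 target, showed no separation between the regions. The gene spans 41809935 to 41908424 on chromosome 10, plus strand. Its level was 44.4, 60.0 and 39.6 CPM in the CBM libraries against 45.2, 54.6 and 41.2 CPM in the EBM libraries. Replicate 2 was the highest library in both regions, and the ranges overlapped almost fully. The log2 fold change was -0.03 with a 95% interval from -0.47 to 0.41, which leaves room for folds from 0.720 to 1.33, and it was 0.16 without CBM replicate 2.

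Sesn3 (ENSMUSG00000032009), which FoxO factors induce in other tissues, spans 14275067 to 14333101 on chromosome 9, plus strand. It was barely counted, with 8, 16 and 11 counts in CBM against 8, 7 and 21 counts in EBM. In CPM this was 0.390 to 1.35 over all libraries, a few times the floor of 3 counts. The log2 fold change of 0.22 had a 95% interval from -1.16 to 1.60 and turned to -0.57 without EBM replicate 3, so no difference could be detected at this depth.

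The make-up of the sestrin transcripts differed between the regions without overlap, though 3 libraries a side cannot pass 0.05 in the exact test used. Per kilobase of gene length, Sesn1 held 71.5%, 75.5% and 70.4% of the summed sestrin level in the CBM libraries against 62.7%, 66.6% and 60.7% in the EBM libraries. Sesn2 held 28.3%, 24.2% and 29.4% in CBM against 37.1%, 33.3% and 38.8% in EBM. For both genes the regions did not overlap, and the difference was 9.08 percentage points for Sesn2 and -9.11 for Sesn1 (two-sided exact permutation p = 0.1, which 3 against 3 libraries cannot go below). Sesn3 held at most 0.519% in any library, so the Sesn1 and Sesn2 shares mirror each other and are a single result. The level of Sesn1 itself differed by -0.03 on the log2 scale, beside 0.59 for Sesn2. The summed level was 15.6, 19.9 and 14.1 CPM per kb in CBM against 18.1, 20.6 and 17.0 CPM per kb in EBM, with overlapping ranges.

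**Figure D2:**
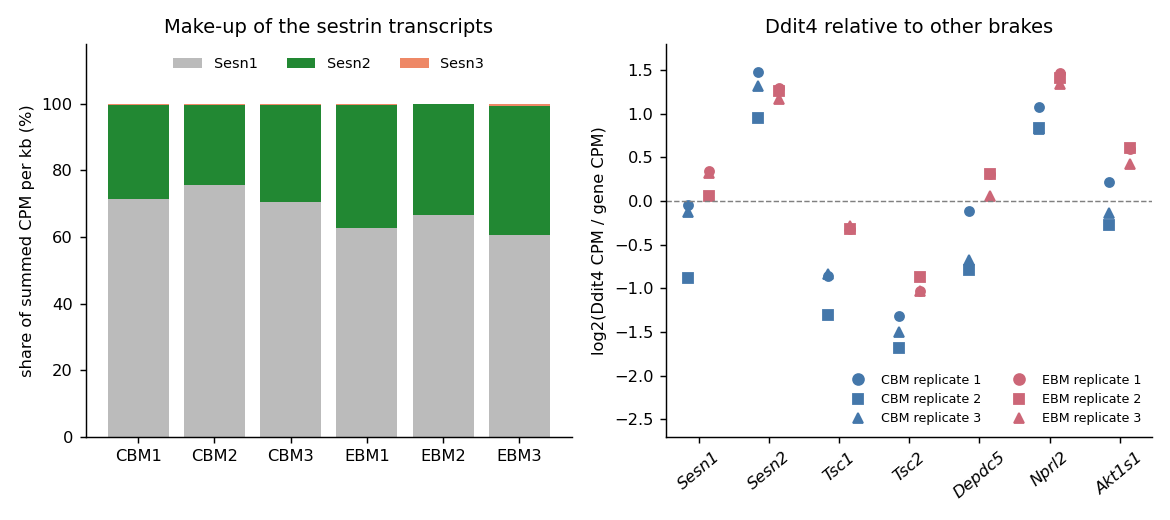
Left, the share of each sestrin gene in the summed CPM per kb (percent, from 0) in each of the 6 libraries, with Sesn2 between 24.2% and 29.4% in CBM and between 33.3% and 38.8% in EBM. Right, the log2 ratio of Ddit4 CPM to that of 7 other brakes in each library, where CBM and EBM separate for every gene shown except Sesn2.

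Neither TSC gene was separated from zero change. Tsc2 (ENSMUSG00000002496), the catalytic subunit, spans 24595816 to 24632630 on chromosome 17, minus strand. It was 108, 104 and 102 CPM in the CBM libraries against 117, 104 and 106 CPM in the EBM libraries. Its log2 fold change was 0.06 (95% interval -0.15 to 0.26; edgeR adjusted p = 0.958), which bounds a fold between 0.902 and 1.20. With library size alone as the scaling the value was -0.015, while that scaling moved the median of all genes to -0.07. Tsc2 shares 693 bases with Pkd1 on the opposite strand, a gene with 1452 to 2881 counts per library, and whether counting used the strand is not given in the sources used here. Tsc1 (ENSMUSG00000026812), the stabilizing subunit, spans 28641228 to 28691167 on chromosome 2, plus strand. It was 78.1, 80.8 and 64.2 CPM in CBM against 71.9, 71.1 and 62.6 CPM in EBM. Its log2 fold change was -0.12 (95% interval -0.40 to 0.17; edgeR adjusted p = 0.911). The third replicate was the lowest for Tsc1 in both regions. The log2 ratio of Tsc1 to Tsc2 within a library was -0.50 ± 0.16 in CBM and -0.67 ± 0.10 in EBM (SD, n = 3 each; exact permutation test, two-sided p = 0.200).

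Neither GATOR1 gene was separated from zero change, and their estimates had opposite signs. Depdc5 (ENSMUSG00000037426) spans 32863701 to 32994236 on chromosome 5, plus strand. It was 46.5, 56.2 and 57.4 CPM in the CBM libraries against 46.1, 45.9 and 49.4 CPM in the EBM libraries. CBM replicate 1 lay at the EBM level and the other CBM libraries above it. The log2 fold change was -0.18 (95% interval -0.45 to 0.09; edgeR adjusted p = 0.773), and leaving out CBM replicate 1 gave -0.27 (edgeR adjusted p = 0.712, unadjusted p of 0.0496). Nprl2 (ENSMUSG00000010057) spans 107542226 to 107545706 on chromosome 9, plus strand. It was 20.3, 18.2 and 20.2 CPM in CBM against 20.7, 21.4 and 20.3 CPM in EBM. The EBM libraries were all above the CBM libraries, by a margin too small to show in 3 digits, and the log2 fold change was 0.09 (95% interval -0.18 to 0.36; edgeR adjusted p = 0.940). With Ddit4 and Sesn2, Nprl2 made 3 brakes whose regions did not overlap with EBM higher, where 7.47% of all genes tested did so. None of the 10 was non-overlapping with EBM lower, against 7.65% of all genes. The log2 ratio of Depdc5 to Nprl2 was 1.44 ± 0.22 in CBM and 1.18 ± 0.09 in EBM (SD, n = 3 each; exact permutation test, two-sided p = 0.200). The other GATOR1 subunit, Nprl3, was 85.0 ± 14.1 CPM (SD, n = 3) in CBM against 75.9 ± 2.40 CPM (SD, n = 3) in EBM, with a log2 fold change of -0.16 (95% interval -0.47 to 0.15).

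The inhibitors that bind mTORC1 differed in spread. Akt1s1 (ENSMUSG00000011096, chromosome 7, 44848991 to 44855421, plus strand) was between 37.04 and 39.84 CPM in all 6 libraries, with a log2 fold change of -0.04 (95% interval -0.25 to 0.18; edgeR adjusted p = 0.983). It shares 89 bases with Tbc1d17 on the opposite strand. Deptor (ENSMUSG00000022419, chromosome 15, 55112317 to 55259271, plus strand) was 9.28, 11.4 and 6.90 CPM in the CBM libraries against 8.004, 6.07 and 7.97 CPM in the EBM libraries. CBM replicate 3 lay inside the EBM range. The log2 fold change of Deptor was -0.32 (SE 0.23, 95% interval -0.88 to 0.23; edgeR adjusted p = 0.820), and it was -0.14 without CBM replicate 2.

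**Figure D3:**
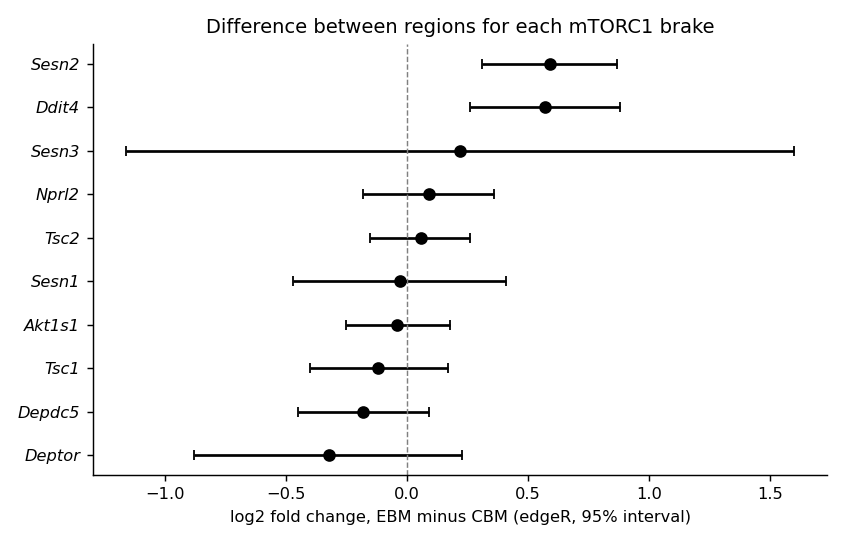
Log2 fold change between EBM and CBM (horizontal axis, EBM minus CBM) for each brake, with points for edgeR's estimate and bars for its 95% interval. The intervals of Sesn2 (0.31 to 0.87) and Ddit4 (0.26 to 0.88) lie above 0 and the other 8 cross it, that of Sesn3 being the widest.

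Whether Ddit4 differed from the other brakes in its change was tested by the log2 ratio of Ddit4 CPM to each brake's CPM within each library, for 9 pairs. The ratio to Sesn2 was 1.48, 0.95 and 1.32 in the CBM libraries against 1.29, 1.26 and 1.17 in the EBM libraries. Its difference between the regions was -0.01 (exact permutation test, two-sided p = 0.900), so the change of Ddit4 was not separated from that of Sesn2. In 7 pairs the EBM ratios were all above the CBM ratios, and each had an exact two-sided p of 0.1, the smallest possible, or 0.129 adjusted over the 9 pairs. Their differences were 0.49 for Nprl2, 0.52 for Tsc2, 0.60 for Sesn1, 0.61 for Akt1s1, 0.69 for Tsc1, 0.75 for Depdc5 and 0.88 for Deptor. The ratio to Sesn3 overlapped between the regions. Since these ratios all carry Ddit4, they are not separate results. Ddit4 itself did not overlap between the regions, so its ratio to a gene with little change separates easily. How often its ratio to any tested gene separates was not counted, so the 7 pairs are not a trait of these brakes.

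Compared per kilobase of deposited gene length, Ddit4 had the highest level of the brakes in both regions. It was 21.2 ± 3.04 CPM per kb in CBM against 31.5 ± 1.85 in EBM (SD, n = 3 each). Over the 6 libraries its lowest value, 18.5, was above every value of the next gene. Akt1s1 (12.5 CPM per kb), Sesn1 (11.9) and Tsc2 (11.1) followed, and their ranges overlapped. Nprl2 (10.0) was below Tsc2 in all 6 libraries. Tsc1 (6.04), Sesn2 (5.60) and Depdc5 (4.27) came next. Tsc1 and Sesn2 overlapped and so did Sesn2 and Depdc5, with Sesn2 below both in mean CBM level (4.47) and above both in mean EBM level (6.73). Deptor (0.931) and Sesn3 (0.0439) were far lower, and each was apart from its neighbours in all libraries. The lengths are those deposited, which for all 10 genes equal the union of the exons of all transcripts in GENCODE M21. Ddit4 has 1 annotated transcript, while Akt1s1 has 12 and Tsc2 has 22. Genes with many transcripts may thus be divided by more than the length of the mRNA present, which sets them low. Without division by length, mean CPM of Ddit4 was below that of Tsc2 in CBM (37.2 against 105) and EBM (55.3 against 109). The order therefore holds on this scale only.

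**Figure D4:**
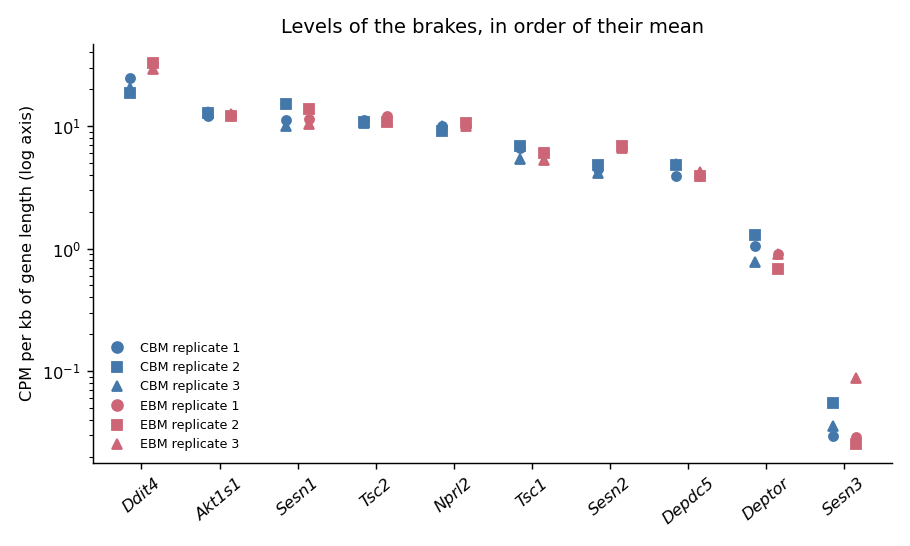
Level of each brake in CPM per kb of gene length (log axis) in the 6 libraries, ordered by the mean over libraries. Ddit4 stands above the rest (18.5 to 32.7 CPM per kb), 7 genes lie between 3.90 and 15.1, and Deptor and Sesn3 lie below 1.29.

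Over the 6 libraries, Pearson's r of log2 CPM between Ddit4 and the other brakes was highest for Sesn2 (0.86) and Nprl2 (0.82) and lowest for Depdc5 (-0.87). Depdc5 and Akt1s1 were the pair of brakes with the most similar profile (r of 0.96). Among all tested genes the profiles most like that of Ddit4 were Psmd8 (r of 0.998) and Gm18811 (0.996). Those most like Sesn2 were Stx11 (0.993) and Cln8 (0.992), those most like Sesn1 were 4930520M14Rik (0.982) and Washc2 (0.980), and those most like Sesn3 were Narfl (0.995) and Mvb12b (0.995). These r values are descriptions over 6 libraries that share region, digestion and possibly mice, and the genes named are the most alike of all 13352 tested.

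The rest of the mTORC1 pathway was described by a list of 52 genes, of which 51 were matched and 44 tested. Of the 44, 21 had a positive and 23 a negative fold change (median -0.01 on the log2 scale), and edgeR gave 0 at an adjusted p under 0.05. limma-voom gave 0 and DESeq2 gave 1, beside 0 and 173 over all genes. At an unadjusted p under 0.05, 4 were higher and 0 lower, beside 4.01% higher and 3.90% lower over all genes tested. In both directions together, the count was 1 without CBM replicate 3, 2 without EBM replicate 2 and 8 with library size alone as the scaling. Over all genes tested the numbers at these settings were 678, 951 and 1224, beside 1056 in the main fit. The largest difference was that of Prkab2, a β subunit of AMPK, the energy-sensing kinase that activates TSC2. It was 14.0, 10.3 and 8.73 CPM in the CBM libraries against 31.4, 31.1 and 21.01 CPM in the EBM libraries, without overlap. Its log2 fold change was 1.34 (95% interval 0.78 to 1.90; edgeR adjusted p = 0.184, DESeq2 adjusted p = 6.86e-05).

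Fnip1, a partner of folliculin, was 63.0, 70.1 and 55.6 CPM in CBM against 105, 120 and 66.8 CPM in EBM, where EBM replicate 3 fell within the CBM range. Ulk1, the autophagy kinase that mTORC1 inhibits, was 119, 223 and 149 CPM in CBM against 207, 301 and 289 CPM in EBM, again with overlap. Rheb, the GTPase that activates mTORC1 and that TSC2 switches off, was 80.6, 80.9 and 84.7 CPM in CBM against 96.4, 98.8 and 91.2 CPM in EBM, without overlap. Their log2 fold changes were 0.63 for Fnip1, 0.70 for Ulk1 and 0.22 for Rheb, with edgeR adjusted p between 0.546 and 0.580. Lamtor3, a Ragulator subunit, was next among the genes higher in EBM (0.18). Among the genes with negative estimates, which held none under 0.05 unadjusted, were Eif4ebp2 (-0.23), the AMPK subunit Prkaa1 (-0.27) and Rhebl1 (-0.37). Mtor and Rptor, which code for the core of the complex, had log2 fold changes of 0.06 and 0.00. Ddit4l, the paralog of Ddit4, had 3 counts in 1 library and 0 in the others.

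**Figure D5:**
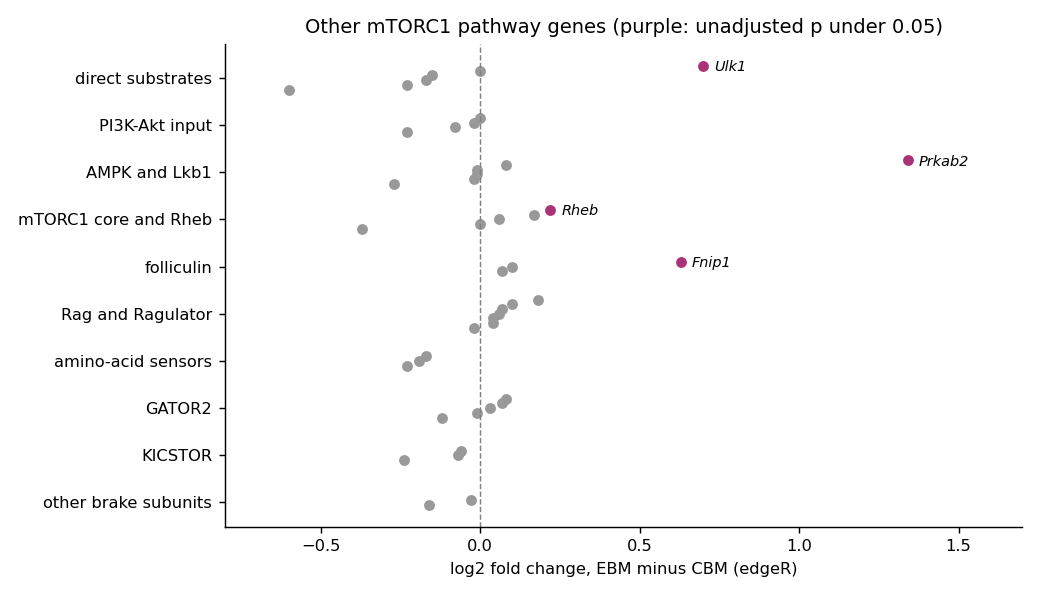
Log2 fold change between EBM and CBM (horizontal axis, EBM minus CBM) for the 44 tested genes of the mTORC1 pathway outside the 10 brakes, 1 point per gene, grouped by complex or role. Purple points, at an unadjusted p under 0.05, are Prkab2 (1.34), Ulk1 (0.70), Fnip1 (0.63) and Rheb (0.22).

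Transcription factors known to act on Ddit4 or the sestrin genes were listed as well, and 8 of 10 were tested. Of the 8, edgeR gave 0 at an adjusted p under 0.05, while unadjusted 2 were under it with EBM higher and 0 with EBM lower. Over all genes tested, 4.01% were higher and 3.90% lower at that unadjusted threshold. The estimates were positive for 7 and negative for 1, beside 6726 positive and 6626 negative among all genes tested. Atf4, the stress factor that induces both Ddit4 and Sesn2 in other settings, was 375, 349 and 366 CPM in CBM against 428, 449 and 540 CPM in EBM, without overlap (log2 fold change 0.38, edgeR adjusted p = 0.456). Nfe2l2, which codes for NRF2, another known inducer of Sesn2, also did not overlap, with 0.49 on the log2 scale (edgeR adjusted p = 0.361). Regions without overlap and with EBM higher were found for 7.47% of all genes tested. Trp53 was at 281 to 307 CPM in CBM and 308 to 350 CPM in EBM, Foxo3 had a log2 fold change of 0.19 and Hif1a of 0.17, all with 95% intervals that crossed 0. Ddit3, a target of ATF4, had a log2 fold change of 0.66 (95% interval -0.02 to 1.33) with overlapping regions, Nr3c1 of 0.01 and Foxo4 of -0.03. Foxo1 had at most 5 counts in any library.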

How the data were processed

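RNA from AE9a leukemia cells of CBM and EBM was sequenced by the authors from rRNA-depleted directional libraries as paired-end reads, with 3 libraries per region. They deposited raw counts per gene, not normalized. The submitters' processing notes name HISAT2 2.0.5 and mm10, and the counting tool and its strand setting are not given in the sources used here. Coordinates in the table equal those of GENCODE M21 (GRCm38) for 98.3% of shared identifiers. The deposited gene length was used as given.

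The 10 genes and all lists were chosen with earlier results of these data known. Genes passing filterByExpr (13352) were TMM-normalized and tested with edgeR 4.0.16 (quasi-likelihood test, Benjamini-Hochberg adjustment over all genes tested, threshold 0.05). Standard errors are Wald errors from the fit with its posterior quasi-dispersion, and intervals are 95%. Fits had no block. The study's methods name an unpaired test for comparisons of 2 groups in general and no model for the RNA-seq counts, and the EBM cells came from bones already flushed for CBM. Within-library log2 ratios used CPM with a prior count of 2 and an exact permutation test over 20 relabellings. Alternatives were DESeq2 1.42.0, limma-voom (limma 3.58.1), other scalings and filters, a replicate block and each library left out. The fits were tested on simulated counts. Chi-square per degree of freedom between libraries of a region was 13.1 or more, more than counting noise gives, so no pair was treated as the same library. A second preparation from the same mouse was not tested for. Named pathway genes were the 5 with the smallest p in each direction, of which 2 with lower values are not reported here, and for Ddit4 and each sestrin the 2 most alike genes. Kics2 was not matched in the table.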

Additional observations from a re-analysis of the deposited data

How the results depend on the processing

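Over 129 recalculated fold changes of the 10 brakes, 123 kept their direction and their side of an adjusted p of 0.05. DESeq2 moved Ddit4 (0.576) and Sesn2 (0.594) past the threshold, gave 2 brakes and 1 pathway gene past it, and called 173 genes in all where edgeR called 0 (1056 at an unadjusted p under 0.05). Without a filter on low counts edgeR called 40. Over the 13 alternatives Sesn2 lay between 0.52 and 0.65 and Ddit4 between 0.48 and 0.69 on the log2 scale, and edgeR's and limma-voom's adjusted p ran from 0.209 to 0.917 for Sesn2 and from 0.285 to 0.985 for Ddit4. Values near 0 changed sign. Sesn1 was 0.163 without CBM replicate 2 and 0.047 without EBM replicate 3 (from -0.154 to 0.163 with 1 library left out), Sesn3 was -0.567 without EBM replicate 3, and Tsc2 was -0.015 with library size alone. The difference between the regions in the log2 ratio of Ddit4 to Sesn2 was between 0.024 and 0.105 without CBM replicate 1, CBM replicate 3 or EBM replicate 3 (0.026 for the last) and as low as -0.160 without CBM replicate 2. The Sesn3 share differed by -0.0982 without EBM replicate 3 and at most by 0.0992. With 1 library left out, genes at an unadjusted p under 0.05 numbered 678 to 1136, the lowest without CBM replicate 3, and pathway genes 1 to 5. With library size alone 8 pathway genes were under it, in both directions together, and 1224 of all genes. The cause of these shifts was not tested. Sesn3 was left out by the filter of 1 CPM in 3 libraries.

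Same-numbered libraries did not deviate together throughout (r of 0.676, -0.204 and 0.203 for replicates 1, 2 and 3), so the numbers were not taken as pairs. Not every library was most like its own number. EBM replicate 3 had an r of 0.51 with CBM replicate 2 and of -0.673 with CBM replicate 1. These values do not settle which libraries came from the same mouse. With the replicate block edgeR called 0 genes at an adjusted p under 0.05, and at an unadjusted p under 0.05 it gave 1203 genes, 2 brakes and 7 pathway genes, and Sesn2 was 0.592 and Ddit4 0.580 (edgeR adjusted p of 0.385 and 0.390). Sesn3 had at most 21 counts in any library.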
